A study of Drosophila melanogaster with 8 samples.

Results

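The Odd-skipped family of Drosophila melanogaster consists of 4 zinc finger genes, odd skipped (odd), sister of odd and bowl (sob), drumstick (drm) and brother of odd with entrails limited (bowl). They were taken here as all probes annotated with these symbols, which gave 4 genes of 11907 named genes and 4 probes, 1 for each gene, of 14569 probes. All 4 genes lie on chromosome arm 2L, and their locus tags are CG3851 for odd, CG3242 for sob, CG10016 for drm and CG10021 for bowl. The family was chosen by name after log ratios of odd and sob in this same comparison had been seen, so the values of all 4 genes, and their calls in the fit across all features, are given as a description that supports nothing.

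Cells homozygous for the asense allele ase1 (ase1/ase1), which lack normal function of the proneural transcription factor Asense, were compared directly with cells called wild type, which were heterozygous (ase1/FM7-KrGFP) and so carried a mutant copy over a marked balancer chromosome. Both came from the ventral nerve cord of stage 11 embryos kept at 25 °C and are described as a population of neuroblasts and ganglion mother cells, the stem cells of the nerve cord and their daughters. Each sample was cDNA amplified by PCR from 50 to 100 cells and hybridised on 2-colour arrays. The 8 arrays form 5 pairs of a mutant and a control sample, numbered 1, 3, 4, 5 and 6, and 3 of these pairs (1, 4 and 5) have arrays a and b that carry the same pair number. Pairs 3 and 6 have 1 array each, so their pair values are also their array values. The value of a pair is the mean of its arrays, and n counts pairs. Nothing states that pairs came from separate embryos, so SDs and p-values measure the spread between these pair values, which may be technical. An SD over pairs does not show the spread between arrays a and b of a pair, which is averaged.

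Odd, the founding member, is a pair-rule protein that represses transcription in the early embryo and recruits the co-repressor Groucho. In the embryonic nerve cord it is known as a marker of the MP2 precursor and of its daughter dMP2. Drm and Bowl act in a relay: Drm binds the protein Lines and relieves the hold of Lines on Bowl, which lets Bowl act in the nucleus. That relay patterns the dorsal epidermis, the foregut and hindgut, and the joints of the leg, where Notch signalling activates the family. Odd-skipped genes also mark nephrocytes of the heart and the lymph gland.

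The deposited values are log ratios, read here as log2, in the likely direction mutant over wild type. The direction is taken from asense itself, whose log ratio was below 0 in both dye orientations, lay between -6.50 and -4.81 on the 8 arrays and averaged -6.06 ± 0.47 (SD, n = 5). Exact zeros, 36.3% to 43.7% per array, were treated as not measured, and 8200 to 9276 probes an array remained. All 4 family genes had a value on all 8 arrays. The 5 neuroblast markers ase, dpn, wor, insc and mira were likewise measured on all 8 arrays. A ratio gives no level of a gene, so which of the 4 genes was the most abundant is not known from these data, and in such samples fewer cells of a type and less RNA per cell cannot be told apart.

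In mutant cells sob and odd were lower than in control cells, drm lay near 0 with pairs on both sides of it, and bowl was higher in 4 of 5 pairs. The mean log ratio was -2.85 ± 1.11 for sob, -1.16 ± 0.43 for odd, -0.25 ± 0.27 for drm and 0.69 ± 0.53 for bowl (SD, n = 5 pairs each). As a fold, the level of sob in mutant cells was 0.139 of that in control cells, that of odd 0.448, that of drm 0.841 and that of bowl 1.61. If the deposited logarithm were a natural one, the differences would be larger, at 17.2-fold for sob and 3.19-fold for odd. The median log ratio of the 4 genes was -0.71 (-0.705 before rounding), beside -0.07 over all 8295 features tested.

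**Figure D1:**
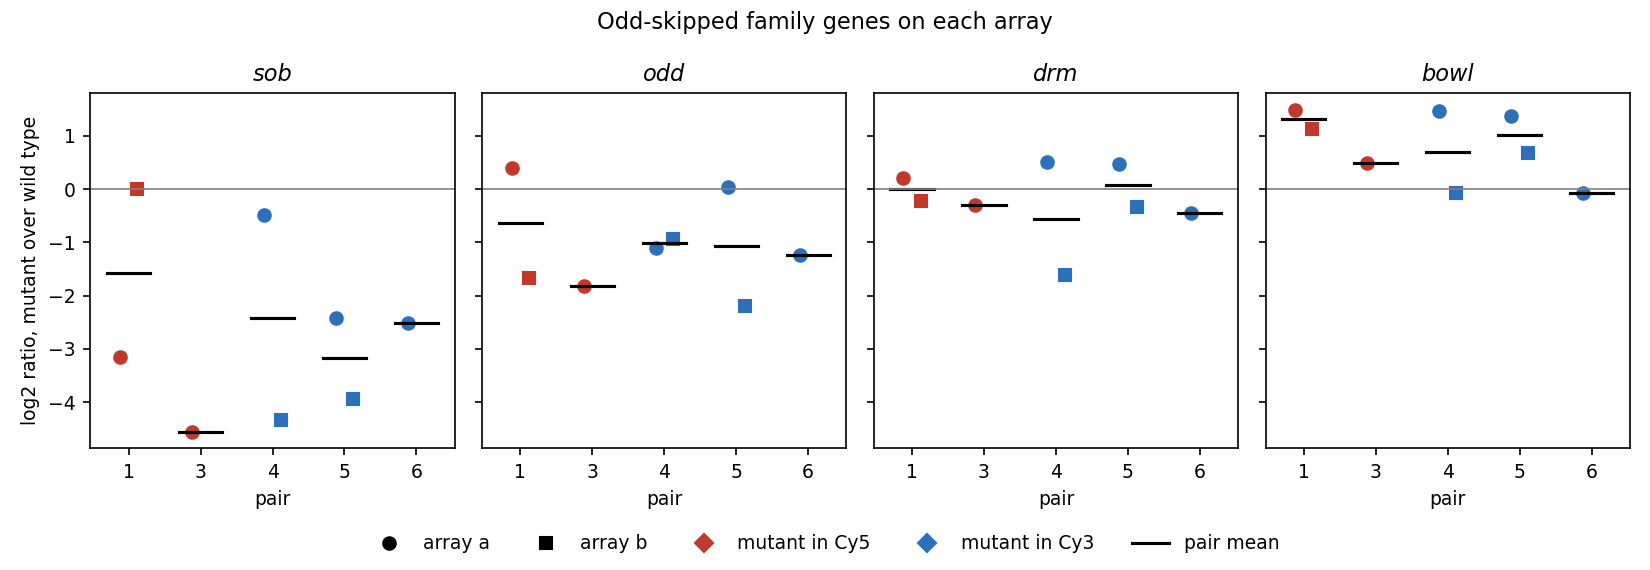
Log2 ratio (mutant over wild type, vertical axis) of sob, odd, drm and bowl in each of the 5 pairs (horizontal axis). Circles are array a and squares array b, red marks arrays with the mutant in Cy5 and blue those with the mutant in Cy3, and bars are pair means. Every pair mean of sob and odd is below 0, and the arrays of a pair can lie more than 3 units apart for sob.

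The gene sob encodes a zinc finger protein close in sequence to Odd and is expressed in much the same places. Its pair values were -1.57 in pair 1, -4.56 in pair 3, -2.41 in pair 4, -3.18 in pair 5 and -2.52 in pair 6. All 5 pairs were below 0, with pair 3 the lowest and pair 1 the highest. On single arrays sob was -3.15 and 0.00 on arrays 1a and 1b, -0.49 and -4.34 on 4a and 4b, and -2.41 and -3.94 on 5a and 5b. Array 1b, at 0.0047, showed next to no difference from the control, while the other 7 arrays were below 0. Only 12 features tested had a lower mean than sob, which ranked 13 from the lowest of 8295. Its spread was wide as well: 2.42% of the features had a larger SD over pairs. With array b of pairs 1, 4 and 5 only, sob averaged -2.76 and lost its call.

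The pair-rule gene odd was lower in mutant cells by a smaller amount and with a narrower spread. Its pair values were -0.64 in pair 1, -1.81 in pair 3, -1.02 in pair 4, -1.08 in pair 5 and -1.24 in pair 6. Pair 3 was the lowest and pair 1 the highest, the same pairs as for sob. On arrays a and b odd was 0.39 and -1.68 in pair 1, -1.10 and -0.94 in pair 4, and 0.04 and -2.20 in pair 5. Arrays 1a and 5a thus lay at or above 0 and the other 6 below it, so the low pair means of pairs 1 and 5 come from array b alone. With array a of each pair only, odd averaged -0.75 and lost its call.

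The gene drm encodes a short protein of the family that frees Bowl from Lines. Its pair values were -0.01 in pair 1, -0.30 in pair 3, -0.56 in pair 4, 0.07 in pair 5 and -0.46 in pair 6. They lie on both sides of 0, and the SD of 0.27 is larger than the mean of -0.25 in size. On arrays a and b drm was 0.20 and -0.22 in pair 1, 0.50 and -1.62 in pair 4, and 0.47 and -0.33 in pair 5. Array a was thus above 0 and array b below it in all 3 of these pairs, and the lowest and the highest of all 8 arrays were both from pair 4. With array a of each pair only, the mean of drm turned to 0.08, so the direction of drm depends on which arrays are used.

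The gene bowl encodes the transcription factor at the end of the relay and was the family member with positive ratios. Its pair values were 1.31 in pair 1, 0.48 in pair 3, 0.70 in pair 4, 1.02 in pair 5 and -0.07 in pair 6. Pair 6 lay just below 0 and the other 4 pairs above it. On arrays a and b bowl was 1.49 and 1.13 in pair 1, 1.46 and -0.07 in pair 4, and 1.36 and 0.67 in pair 5. Of the 8 arrays 6 were above 0, and the remaining 2 (4b and 6a) were both at -0.07.

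A fit across all features (limma, Benjamini-Hochberg adjusted p below 0.05) called 2 of the 4 genes lower, sob and odd, and 0 higher. Over all 8295 features tested it called 18.3%, of which 939 were lower (11.3%) and 578 higher (6.97%), and the split was 707 lower and 805 higher with each array centred on its measured median. Values below 0 in every measured pair were found for sob and odd and for 21.3% of all features, and values above 0 in every pair for 0 of the 4 genes and 13.1% of features. Since the family was picked with this comparison in view, nothing is read from these counts or from the calls of single family genes in other fits. The gene bowl was not called in this fit, but was called after centring (0.76), without pair 6 (0.88) and in 5 further alternatives. Among these, the fits of genes in all 5 pairs only and of each probe on its own left its value at 0.69. They changed the set of features tested. The gene drm was not called in any of 17 alternative fits.

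**Figure D2:**
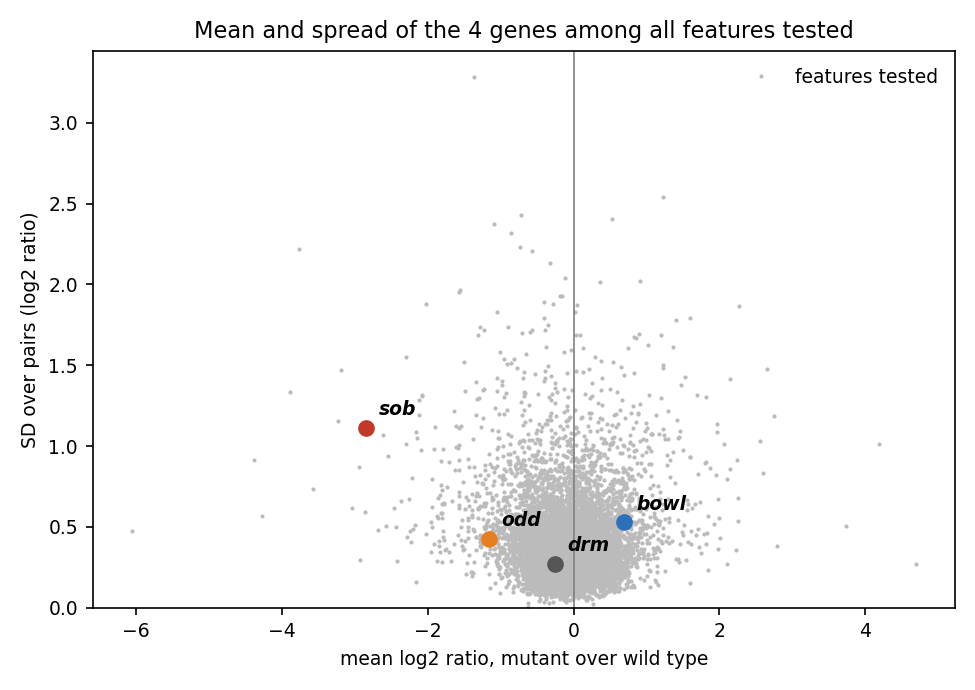
Mean log2 ratio (mutant over wild type, horizontal axis) against the SD over pairs (vertical axis) for the 8295 features tested (grey) and the 4 family genes (coloured, named). The gene sob combines a mean of -2.85 with an SD of 1.11, while odd, drm and bowl have SDs between 0.27 and 0.53.

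The 4 genes kept the same order in all 5 pairs, sob lowest, then odd, drm and bowl. The difference odd minus sob averaged 1.69 ± 0.73 (SD, n = 5 pairs) and ran from 0.93 to 2.74. The difference odd minus drm averaged -0.91 ± 0.42, and drm minus bowl -0.94 ± 0.38, each below 0 in 5 of 5 pairs. The widest gap, sob minus bowl, averaged -3.53 ± 1.06. Each neighbouring pair of genes in the order thus differed by more than the SD of its difference. Array by array the order was looser: bowl was the highest of the 4 on 8 of 8 arrays and sob the lowest on 6, while the full order held on 4.

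Over all features tested, limma put the correlation of arrays that share a pair number at -0.20. Such arrays were thus no more alike than arrays of different pairs. Arrays a and b of a pair disagreed more for sob than for most features. In pair 4 the sob arrays were 3.85 apart, a difference that 0.15% of the features measured on both arrays reached. In pair 1 they were 3.15 apart (reached by 0.82%) and in pair 5 they were 1.52 apart (4.96%). For odd the arrays were 2.07 apart in pair 1 (2.75%) and 2.24 apart in pair 5 (1.38%), but 0.17 apart in pair 4 (84.0%). For comparison, the median size of this difference over all features was 0.45 in pair 1, 0.57 in pair 4 and 0.44 in pair 5. Array b was lower than array a for drm and bowl in pairs 1, 4 and 5. It was also lower for odd in pairs 1 and 5 and for sob in pairs 4 and 5. The exceptions were sob in pair 1 and odd in pair 4, where array b was higher. The median of b minus a over all features was -0.05 in pair 1, -0.09 in pair 4 and -0.04 in pair 5. For drm and bowl the largest gap was in pair 4, at 2.12 (3.08% of features) and 1.53 (8.40%). Array 4b had the widest spread of all arrays, with a median absolute deviation of 0.52 against 0.33 to 0.45 on the others. Without it sob averaged -2.46, odd -1.18, drm -0.04 and bowl 0.84. Its part in the values of the 4 genes was not tested beyond that.

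The dye orientations overlapped for all 4 genes. With the mutant in Cy5 (3 arrays) sob ran from -4.56 to 0.00, and with the mutant in Cy3 (5 arrays) from -4.34 to -0.49. The corresponding ranges of odd were -1.81 to 0.39 and -2.20 to 0.04. Those of drm were -0.30 to 0.20 and -1.62 to 0.50, and those of bowl 0.48 to 1.49 and -0.07 to 1.46.

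On 2L the gene table places drm, sob and odd in this order with only unmeasured genes between them: 4 annotated genes between drm and sob and 2 between sob and odd, none with a named probe here. The gene bowl follows 38 annotated genes after odd. Of the 46 neighbours examined (those inside the cluster and 10 on each side of it and of bowl), 13 were tested, and the fit called 2 higher and 2 lower. Their median was -0.03.

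The closest tested gene on the drm side was Spindly, a mitotic protein that acts with dynein at the kinetochore, at -1.23 ± 0.33 (SD, n = 5, limma adjusted p = 0.00306). Further out Sr-CIV, a scavenger receptor gene, rose (2.07 ± 1.01, adjusted p = 0.00827) and LeuRS, a leucyl-tRNA synthetase gene, fell (-1.04 ± 0.51, adjusted p = 0.0125). On the odd side CG15418 (-0.04 ± 1.08) and for (0.12 ± 0.33), which encodes a cGMP-dependent kinase, were not called. Beside bowl, CG31960 was at -0.35 ± 0.29 (n = 4). On the other side of bowl the closest tested gene, beyond untested ones, was CG10019 at -0.43 ± 0.10 (n = 4). Both were not called. The pair-rule gene slp2, a forkhead factor gene 9 places beyond bowl, was not called either (0.22 ± 0.16). The gene cutlet rose (0.72 ± 0.43, adjusted p = 0.0287), a call that was lost without pair 1, 3 or 5 (adjusted p up to 0.0911). Of the tested genes nearest to the cluster, Spindly was thus called lower, and CG15418 and for were not called.

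**Figure D3:**
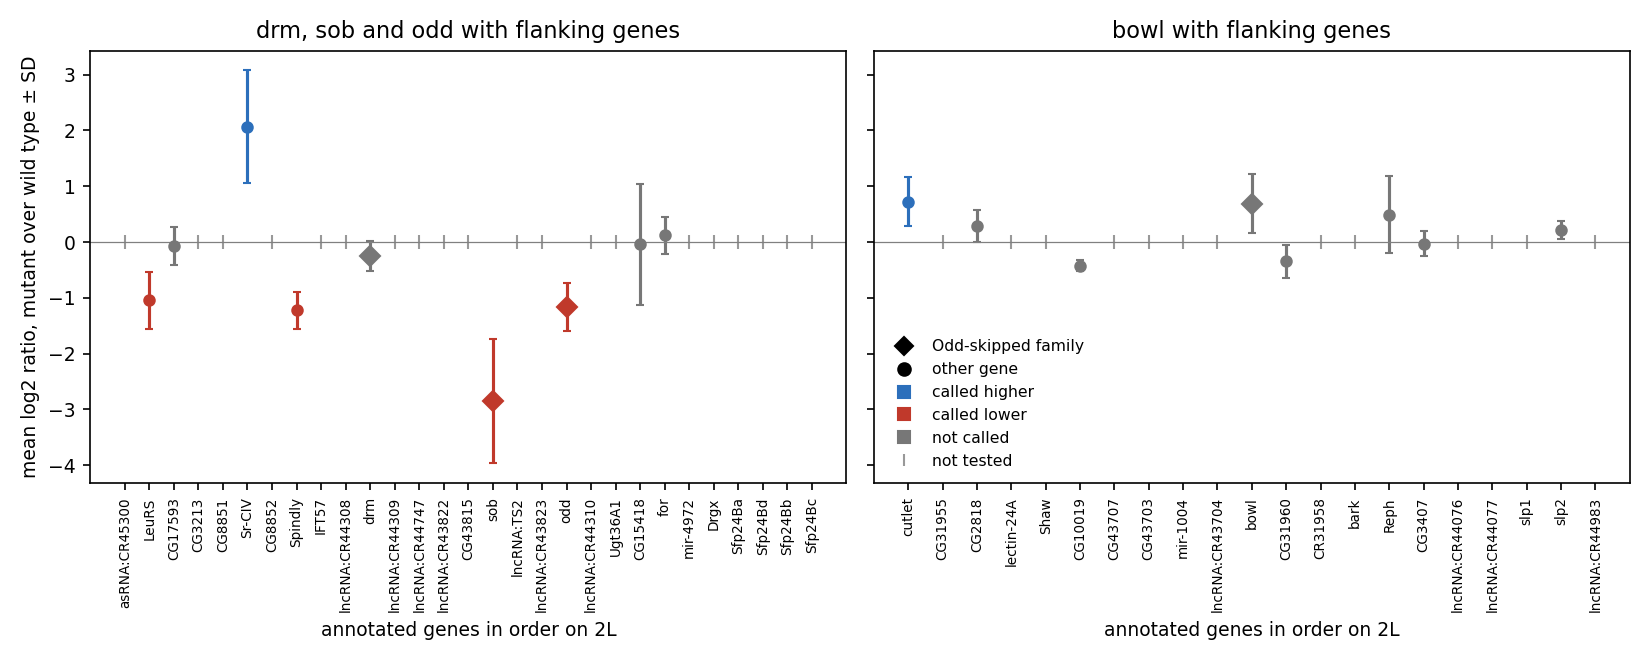
Mean log2 ratio ± SD over pairs (vertical axis) for the annotated genes around drm, sob and odd (left) and around bowl (right), in their order on 2L (horizontal axis, not to scale). Diamonds are family genes, circles other genes, red and blue mark genes called lower and higher, and ticks at 0 mark genes that were not tested. The gene sob at -2.85 is the lowest of the genes shown and Sr-CIV at 2.07 the highest.

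Genes with the pattern most like each family gene were found by the root mean square difference of their pair log ratios, over 5 pairs and 6573 other named genes. The measure follows the size of the ratio as much as its variation between pairs. Nearest to sob were Or19b, an odorant receptor gene with a close copy that its probe may also detect (0.91), CG18428 (0.97), CG11825 (1.03), Uch, a ubiquitin hydrolase gene (1.05), and CG14072 (1.08). These distances are large next to those of the other 3 genes, and odd came 83rd for sob, at a difference of 1.81.

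Nearest to odd were CG17977 (0.18), CG1295 (0.18), CG31793 (0.21), Sec13, a gene of vesicle coats and the nuclear pore (0.22), and Tes (0.24), all called lower. Nearest to drm were TBPH, which encodes an RNA-binding protein (0.07), kug, a cadherin gene (0.09), KFase (0.10), BckdhA (0.11) and CG11200 (0.12), and none of these 5 was called. Nearest to bowl were CG16959 (0.21), anox (0.23), CG8773 (0.25), CG13454 (0.28) and Ldaf1 (0.28), of which 3 were called higher. No family gene was among the 5 nearest of another. The median distance over all genes was 2.99 for sob, 1.24 for odd, 0.55 for drm and 0.98 for bowl.

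**Figure D4:**
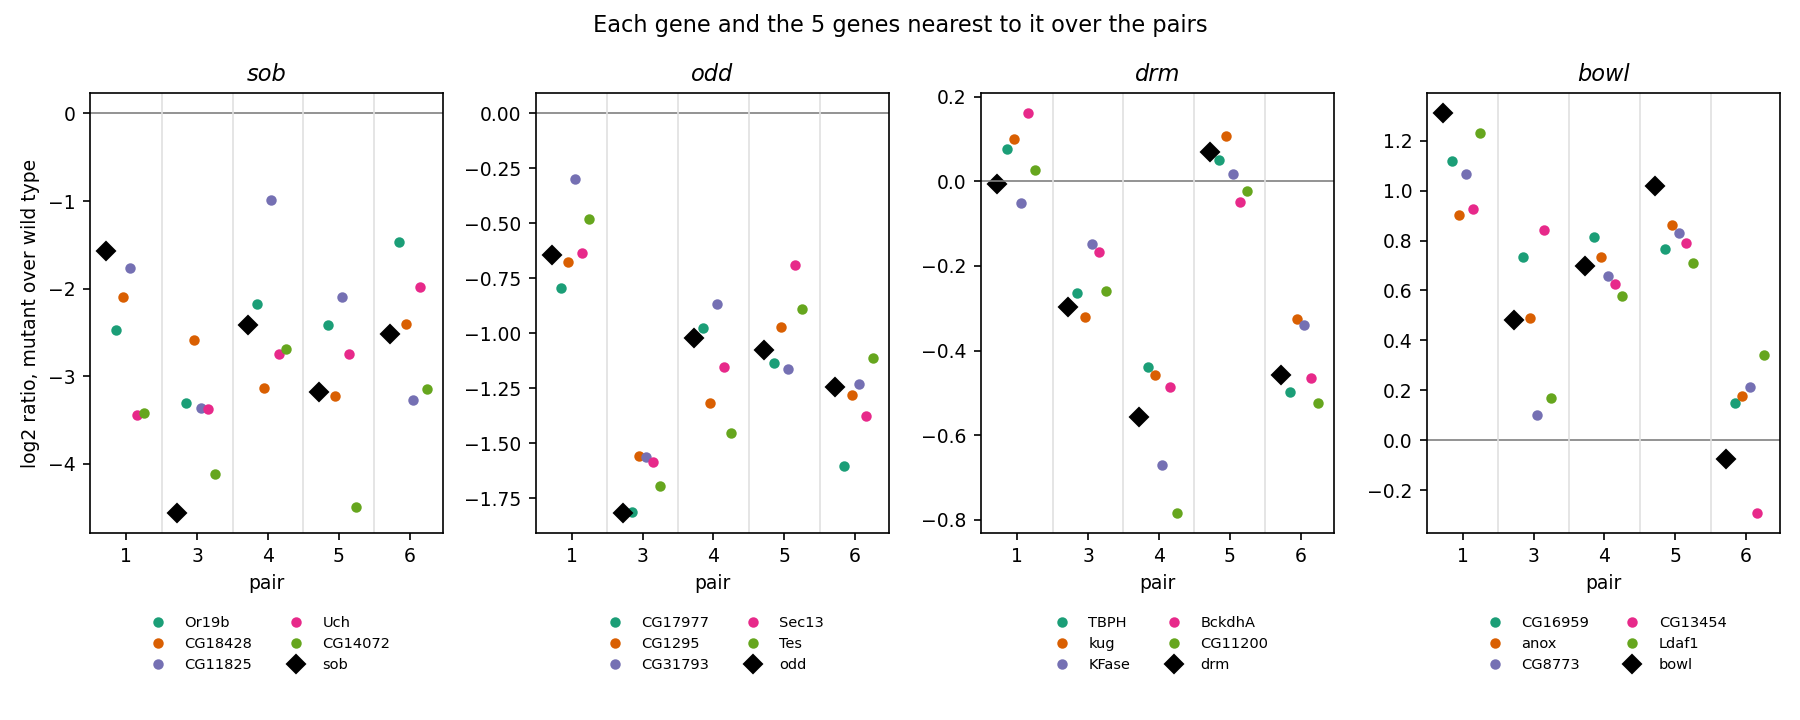
Log2 ratio (mutant over wild type, vertical axis, scale differs between panels) in the 5 pairs (horizontal axis, in no order) for each family gene (black diamonds) and the 5 genes with the smallest root mean square difference from it (coloured circles). The genes around odd are, like odd (-1.81), lowest in pair 3, while those around sob scatter widely. Since nearness to the pair values was the rule of choice, a shared low pair is no separate result.

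The partners of Drm and Bowl were not called, and 0 of them had an unadjusted p below 0.05. The gene lin, which encodes Lines, was at -0.05 ± 0.39 and gro, the co-repressor Groucho, at -0.27 ± 0.51 (SD, n = 5), with limma adjusted p = 0.853 for lin and 0.356 for gro.

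Among the other pair-rule genes, the class to which odd belongs, 4 of 9 were tested and 0 were called by limma, with 1 at an unadjusted p below 0.05. The homeobox gene eve came closest, at -0.96 ± 0.82 (adjusted p = 0.0513), and opa was at 0.46 ± 0.64 (adjusted p = 0.186). The list median was 0.11, but its sign depended on the arrays used. Array a alone gave -0.36, and array b alone (pairs 1, 4 and 5, 3 genes tested) gave 0.53. The calls depended on the fit as well. Among the alternatives, those with array a alone, without array 4b or without pair 6 each called 1 gene of the list lower. Array b alone called 1 higher, and the fits without pair 1, 3, 4 or 5 called 0. Of 8 gap genes, which act upstream of the pair-rule genes, 5 were tested. The zinc finger gene hkb rose (0.58 ± 0.31, adjusted p = 0.0331), and kni, a nuclear receptor family gene, fell (-0.80 ± 0.52, adjusted p = 0.0310). The call of hkb was lost without pair 1, 3, 4 or 6 (adjusted p up to 0.104) and that of kni without pair 1, 4 or 5 (up to 0.0831).

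Segment polarity genes, which pattern the epidermis in which the Drm relay acts, had 12 of 19 members tested and a median of -0.05. That median was -0.10 for array a alone and 0.13 for array b alone (pairs 1, 4 and 5). The signal gene hh rose (0.50 ± 0.28, adjusted p = 0.0448) and the kinesin-like inhibitor gene of the same pathway, cos, fell (-1.18 ± 0.53, adjusted p = 0.00920). The call of cos held without any 1 pair, and that of hh was lost without pair 1, 4, 5 or 6 (adjusted p up to 0.129). The remaining 10 were not called, and the signal gene wg was not analysed here.

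Notch signalling activates odd, sob and drm in the leg joint. Of 26 genes of that pathway and its targets 16 were tested, and 5 were called higher and 2 lower, with a median of 0.56 beside -0.07 over all features. The Notch target E(spl)m2-BFM rose with the narrowest spread of the 5 (1.13 ± 0.16, adjusted p = 0.00165). The targets E(spl)m7-HLH (0.73 ± 0.30) and E(spl)m4-BFM (1.06 ± 0.44) also rose, and these 3 calls held without any 1 pair. Also called higher were E(spl)malpha-BFM (1.05) and spdo (0.85), and mam (-0.62) and neur (-0.55) were called lower. These 4 calls were lost without at least 1 pair: that of E(spl)malpha-BFM without pair 1, 4 or 5 (adjusted p up to 0.0711), of spdo without pair 3, 4, 5 or 6 (up to 0.0993), of mam without pair 1, 3, 4 or 5 (up to 0.0786) and of neur without each of the 5 in turn (up to 0.126). The call of neur was also lost after centring each array (-0.48). With array a of each pair only, 1 gene of the list was called higher and 0 lower, with a median of 0.51. Over pairs the list median ran from 0.21 to 0.61.

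For the MP2 precursor, where odd is a marker in the nerve cord, 7 of 10 listed genes were tested. The homeodomain gene pros (-1.27 ± 0.39, adjusted p = 0.00401) and its adaptor gene mira (-0.69 ± 0.34, adjusted p = 0.0217) fell, and aPKC (0.74 ± 0.53, adjusted p = 0.0396) and spdo rose. The pair-rule gene ftz (0.00 ± 0.78) and the proneural gene ac (0.72 ± 0.77), both expressed in MP2, were not called. The median of the list was -0.0012. It depended on the arrays used, at -0.44 for array a alone and 0.07 for array b alone (pairs 1, 4 and 5). The call of mira was lost without pair 4 or 5 (adjusted p up to 0.0716), and that of aPKC without pair 3, 4, 5 or 6 (up to 0.117).

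Markers of tissues outside the nerve cord in which the family is expressed were also examined. Of 15 genes of the heart, nephrocytes and lymph gland 11 were tested, and 4 were called lower and 0 higher, with a median of -0.40. The 4 were the T-box genes Doc1 (-3.19 ± 1.47, SD, n = 5), Doc2 (-2.54 ± 0.94, n = 4) and Doc3 (-1.62 ± 0.85, n = 5), and the nuclear receptor gene svp (-0.96 ± 0.30, n = 5), which neuroblasts also express. These 4 calls held without any 1 pair (limma adjusted p between 0.00539 and 0.0114 over all pairs). Doc1 was measured on 5 of the 8 arrays and Doc2 on 4. With array a of each pair only, 8 genes of the list were tested and 1 was called lower. Without array 4b, 10 were tested and 2 called lower. Over all features 11.3% were called lower and 6.97% higher. Of the defining markers Hand was at 0 on all 8 arrays, while srp (-0.45), zfh1 (-0.40) and sns (-0.20) were not called. The list median ran from -1.04 in pair 6 to 0.21 in pair 3.

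Of 12 foregut and hindgut genes 5 were tested. The signal gene upd1, which is expressed in the hindgut, fell (-1.57 ± 0.85, adjusted p = 0.0125) and held its call without any 1 pair, and hkb rose as above. The hindgut markers byn and cad were at 0 on all 8 arrays, and fkh was at -0.68 ± 1.34. The list median ran from -0.77 in pair 6 to 0.14 in pair 3. Of 8 genes of the Malpighian tubule 6 were tested, svp was called lower, and the median was -0.33. The part of other tissues in the ratios of sob and odd was not tested.

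**Figure D5:**
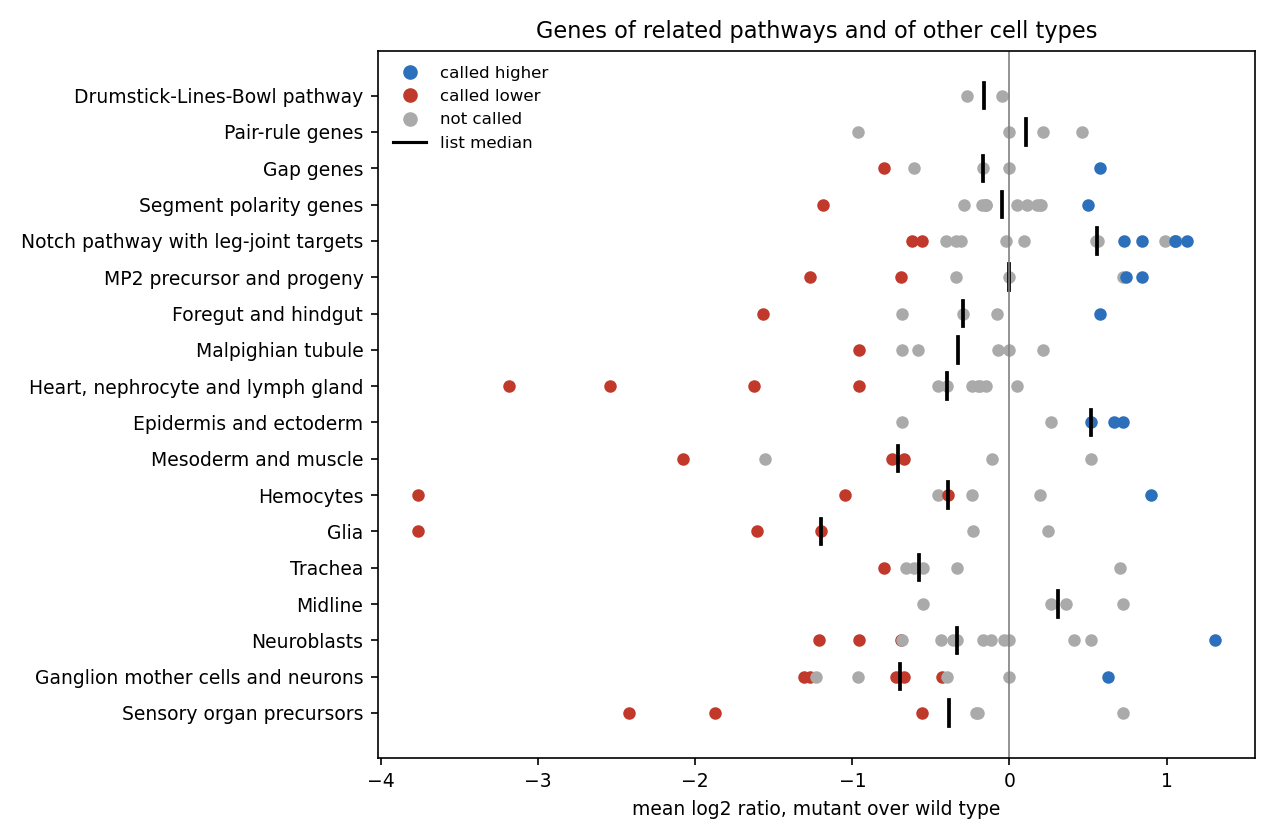
Mean log2 ratio (mutant over wild type, horizontal axis) of the tested genes of 18 lists (vertical axis), without the 4 family genes and without asense in the drawing. Blue and red circles are genes called higher and lower, grey ones were not called, and bars mark list medians, with asense counted. The 3 lowest circles of the heart, nephrocyte and lymph gland list are the Doc genes, and the Notch list has a median of 0.56.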

How the data were processed

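The authors deposited a table of log ratios, read here as log2, for 14569 probes on 8 arrays. Base, normalization, scaling, centring and direction are not given in the sources. Sizes reached 7.43, past 4.82, the ceiling of a 16-bit image in log10, so base 10 was not used, and a natural log remains possible. Of the probes 12657 had 1 symbol in the platform annotation, 96 several and 1816 none; 12011 were matched by gene identifier and 107 by accession to a Release 6 gene table, used for names and gene order only, and 98 symbols were updated. Exact 0 was treated as not measured. Probes of a gene were averaged, then arrays a and b of a pair. Features with values in at least 4 of 5 pairs (8295; 7614 in all 5) entered a two-sided limma fit of the mean against 0 (version 3.58.1, R 4.3.3, default eBayes) and were called at an adjusted p below 0.05. All adjusted p-values come from this fit across all genes, or from the same fit without a pair. The fit was tested on simulated data.

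The 4 members and the 18 gene lists were chosen with earlier results of these data known. The text names list genes that were called or, where 0 were, those with the smallest p, neighbours that were called or next to a family gene, and the 5 genes nearest to each family gene. A few others are named as values, chosen after these were seen. Alternatives changed the direction, centring, scaling, repeat arrays, dye term, weights, zeros, missing values, probes, moderation and pairs included. The fits with array b alone and without array 4b were added after seeing the data. Sequences of probes and genes were not used here.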

Additional observations from a re-analysis of the deposited data

Results flagged for a closer look

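Values over the 5 pairs were examined for 1 pair far from the rest in 69 genes, the 4 family genes included. The family genes had no such pair. Chance alone gives about 1 in 20, or 3.45 of the 69, and 4 were found. The gap gene kni stood at -1.68 in pair 6, and the closest of its other pairs at -0.76. For svp it was -1.49 in pair 6, next to -0.93. For the muscle factor gene nau it was 0.078 in pair 4, next to -0.79. For CG13454, among the 5 genes nearest to bowl, it was -0.29 in pair 6, next to 0.63, and bowl itself had its lowest value, -0.07, in pair 6.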

How the results depend on the processing

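Leaving aside the reading of direction, 17 alternatives were run. In 4 of them (zeros kept, all 5 pairs only, each probe on its own, other moderation) the values of the family genes cannot move, since each has 1 probe and a value on every array. The direction was the same in 17 for sob, odd and bowl, these 4 included, and in 16 for drm. The values ran from -3.16 to -2.42 for sob, from -1.60 to -0.75 for odd, from -0.72 to 0.08 for drm and from 0.53 to 0.94 for bowl. Sob and odd were each called in 15 of them. Sob was not called with exact zeros kept or with array b of pairs 1, 4 and 5 only, and odd not with zeros kept or with array a only. Bowl was called in 7. With array b only, odd was at -1.60 and drm at -0.72, and with array a only drm was at 0.083. Leaving out each pair in turn gave -3.16 to -2.42 for sob, -1.29 to -0.996 for odd, -0.33 to -0.17 for drm and 0.53 to 0.88 for bowl. Read as wild type over mutant, the means were 2.85 for sob, 1.16 for odd, 0.25 for drm and -0.69 for bowl. Read as Cy5 over Cy3 they were 0.39, 0.18, 0.13 and 0.030 in the same order. Over all features, 578 were called higher and 939 lower. The Cy5 over Cy3 reading called 0 in each direction in limma (117 at an unadjusted p below 0.05), and wild type over mutant 939 higher and 578 lower. Array a only gave 189 higher and 285 lower, array b only 133 and 226, zeros kept 141 and 204, and the fit without array 4b 331 and 478. Without 1 pair the calls ran from 240 to 455 higher and from 357 to 854 lower. The cause was not tested. Keeping zeros raised the features tested to 13819. Of 45 other genes called in the lists or among the neighbours, 5 kept the call in every one of these alternatives that was run by gene and tested them, 21 without any 1 pair and 40 after centring, and 0 changed direction. Each log ratio is a difference within a pair, so the fit is itself paired. The number of arrays limits the precision, and signal over background is not known from ratios.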

Other observations

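Markers of further cell types were examined beside the family. Of 15 tested neuroblast genes, the Sox gene D (1.31) was called higher and ase, klu (-1.21), svp and mira lower, with a median of -0.33. The list includes ase, the mutated gene itself. The neuroblast markers dpn (-0.44), wor (-0.11) and insc (-0.03) were not called. The sign of the list median depended on the arrays used. Array a alone gave -0.45, while array b alone (pairs 1, 4 and 5) gave 0.17, with 2 genes called higher and 1 lower. Of 10 genes of ganglion mother cells and neurons, acj6 (0.63) was called higher and pros, nerfin-1 (-1.31), lola (-0.72), elav (-0.67) and Appl (-0.43) lower (median -0.70, -0.695 before rounding). The 4 not called were eve (-0.96), ftz (-0.001), Hey (-1.23) and zfh1 (-0.40). Array a of each pair alone gave 1 gene of this list called higher and 5 lower. Array b alone (pairs 1, 4 and 5, 9 genes tested) gave 1 higher and 0 lower. Of 6 genes of sensory organ precursors, sens (-2.42 ± 0.29, SD, n = 5, limma adjusted p = 0.000171), tap (-1.88 ± 0.57) and neur were lower, with a median of -0.38. The other 3 were not called, with ac above 0 (0.72) and sc (-0.21) and phyl (-0.20) below it. The calls of D, nerfin-1, lola, sens and tap held without any 1 pair. Those of klu (without pair 1, 3 or 4, adjusted p up to 0.0859) and acj6 (without pair 3, 4, 5 or 6, up to 0.0919) did not. The calls of elav (up to 0.13) and Appl (up to 0.116) were lost without each pair in turn and after centring.

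Of 5 glial genes, gcm (-3.77 ± 2.22, n = 5), repo (-1.20) and Gs2 (-1.61) were lower, with a median of -1.20. The other 2, loco (-0.23) and nrv2 (0.25), were not called. With array a of each pair only, 4 glial genes were tested and 0 called. Without array 4b, 5 were tested and 0 called. Of 7 hemocyte genes, Tig (0.90) was higher and gcm, crq (-1.05) and Hml (-0.39) lower (median -0.39). Of 6 mesoderm and muscle genes, lmd (-2.08), slou (-0.75) and nau (-0.67) were lower (median -0.71), and of 6 tracheal genes kni was lower (median -0.58). The mesoderm genes twi (-0.11), sna (0.52) and htl (-1.56) were not called. With array a of each pair only, and likewise without array 4b, 0 of the 6 mesoderm and muscle genes were called. Array b alone (pairs 1, 4 and 5, 5 genes tested) gave 1 called higher and 0 lower. Among the tracheal genes not called, btl lay above 0 (0.70) and vvl, bnl, knrl and esg below it. Of the called genes, gcm and crq kept their calls without any 1 pair. Those of repo (without pair 4 or 6, adjusted p up to 0.0772), Gs2 (1, 5 or 6, up to 0.0813), Tig (4 or 5, up to 0.0921), lmd (4 or 5, up to 0.053), slou (1 or 5, up to 0.0769), nau (1, 3, 5 or 6, up to 0.108) and Hml (each in turn, up to 0.159) did not. After centring nau and Hml were not called.

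Of 5 tested genes of epidermis and ectoderm, crb (0.52), pyd (0.72) and Egfr (0.66) were called higher and 0 lower (median 0.52). The other 2, grh (-0.68, limma adjusted p = 0.0504) and ovo (0.27), were not called, and grh lay in the opposite direction. The call of pyd was lost without pair 5 (adjusted p = 0.051), that of crb without pair 1, 4, 5 or 6 (up to 0.127) and that of Egfr without pair 1, 3, 4 or 5 (up to 0.144). Of 4 midline genes 0 were called by limma, with Tl (0.72, adjusted p = 0.0531) and spi (0.36, adjusted p = 0.0643) the nearest, and 3 had an unadjusted p below 0.05.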
